A study of Bos taurus with 6 samples.

Results

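The 10 genes described here belong to acetyl-CoA supply and fatty acid synthesis. They were chosen by name and fall into 4 roles, namely acyl-CoA supply from citrate and short-chain acids (ACLY, ACSS2 and ACSS3), chain synthesis (ACACA and FASN), elongation and desaturation (SCD, ELOVL6, FADS1 and FADS2) and transcription (SREBF1). All 10 were found by Entrez identifier among the 19163 genes of the deposited count table and by symbol in the deposited TPM table, and all 10 were among the 13001 genes with enough counts to be tested. The RNA came from F7, a single line of bovine embryonic stem cells (bESCs) that was established from in vitro fertilized Holstein Friesian embryos. MC-F7 cells were grown on C57 mouse embryonic fibroblasts (MEFs) treated with mitomycin C, which stops division and leaves the fibroblasts alive, and MT-F7 cells were grown on MEFs killed by fixation in methanol. Each group had 3 RNA-seq libraries, and the deposited description gives 15 passages for both. Both groups were kept in the same medium, a basal medium without growth factors to which FGF and the WNT inhibitor IWR1 were added, but the medium was changed every day for MC-F7 cells and on alternate days for MT-F7 cells, so feeder treatment and medium interval cannot be told apart. Before RNA extraction the dissociated cells were left on gelatin and the floating cells were collected, a step meant to leave attached fibroblasts behind. The authors reported a higher share of reads aligned to the bovine genome for MT-F7 than for MC-F7 cells. They proposed that fixed feeders reduced feeder cell contamination. How far mouse reads entered the gene counts of either group was not tested.

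Fatty acid synthesis starts from acetyl-CoA outside the mitochondria. ATP citrate lyase (ACLY) makes it from exported citrate and ACSS2 makes it from acetate, acetyl-CoA carboxylase (ACACA) turns it into malonyl-CoA, and fatty acid synthase (FASN) joins these units into palmitate. ELOVL6 lengthens palmitate to stearate, SCD places the double bond that gives palmitoleate and oleate, and FADS2 and FADS1 act on the polyunsaturated fatty acids taken from the medium. SREBF1 encodes SREBP1, a transcription factor known for switching on these enzymes. Pluripotent cells are known for active fatty acid synthesis, and acetyl-CoA is also the donor for histone acetylation.

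The gene counts of a library summed to 21958386 at least and 24933430 at most. The limit of 3 counts, taken as the smallest detected amount and covering counting error only, was 0.12 to 0.137 CPM, which are counts scaled to 1000000 per library. The 13 protein genes of the mitochondrial genome took 16.3% to 28.3% of the counts, and replicate 3 had the highest share in each group. Separate cultures are not stated in the sources as the origin of the 3 libraries, so SDs and p-values measure the spread between these libraries, which may be technical. Of 5 pluripotent cell markers found in the count table, all 5 (POU5F1, NANOG, LIN28A, DNMT3B and TDGF1) were significantly lower in MT-F7 cells. Their summed level was 1309 to 1998 CPM in MC-F7 and 681 to 810 CPM in MT-F7 libraries. Listed markers with rescaled TPM values only were UTF1 and LIN28B, which could not be tested on counts. UTF1 had 474 ± 61.2 TPM in MC-F7 and 278 ± 17.0 TPM in MT-F7. LIN28B was not lower, with 5.53 ± 1.36 and 5.69 ± 0.447 TPM. All 5 neural and eye field markers found (PAX6, RAX, LHX2, SIX3 and SIX6) were significantly higher, with a summed level of 125 to 151 CPM in MC-F7 and 704 to 857 CPM in MT-F7 libraries. Of 8 fibroblast markers, 3 were higher (COL3A1, PDGFRB and POSTN) and none was lower, with summed levels of 219 to 295 and 337 to 391 CPM. Among trophectoderm markers CDX2 had 0 counts in all libraries, while KRT18 and GATA2 were lower, and the summed level of the 6 was 712 to 1042 CPM in MC-F7 and 180 to 204 CPM in MT-F7 libraries, nearly all of it KRT18. Hypoblast markers summed to 5.71 to 7.67 CPM in MC-F7 and 1.70 to 2.42 CPM in MT-F7 libraries, with GATA4 at 0 counts in all libraries and FOXA2 significantly lower. Adipocyte markers, whose cells are rich in the enzymes described here, summed to at most 3.04 CPM with FABP4 at 0 counts.

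Levels of different genes were compared per gene length, on deposited TPM values rescaled to 1000000 per library. SCD was the most abundant of the 10 transcripts in both groups, with 309.6, 327 and 229 TPM in the MC-F7 libraries and 423, 369 and 301 TPM in the MT-F7 libraries. FASN came next, with 204, 216 and 214 TPM in MC-F7 and 182, 176 and 197 TPM in MT-F7. In each group every SCD value lay above every FASN value, and every FASN value lay above those of the other 8 genes. FADS1, SREBF1, FADS2 and ACLY formed a middle band, with means from 63.5 to 80.5 TPM in MC-F7 and from 64.3 to 94.3 TPM in MT-F7. Neighbours in this band overlapped between libraries, except that the lowest MT-F7 value of FADS1 (73.9 TPM) was above the highest of ACLY (71.8 TPM). ELOVL6 was below them at 17.5 ± 4.34 TPM in MC-F7 and 30.3 ± 5.72 TPM in MT-F7 (SD, n = 3), and ACSS2 followed at 10.8 ± 0.132 and 13.5 ± 0.359 TPM. ACACA, which encodes the enzyme of the committed step, was among the least abundant at 6.24 ± 1.91 and 5.88 ± 0.455 TPM. The order of the last pair differed between the groups: ACSS3 was lowest in MC-F7 at 2.17 ± 0.354 TPM, and at 8.31 ± 1.00 TPM in MT-F7 it lay above ACACA in every library.

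**Figure D1:**
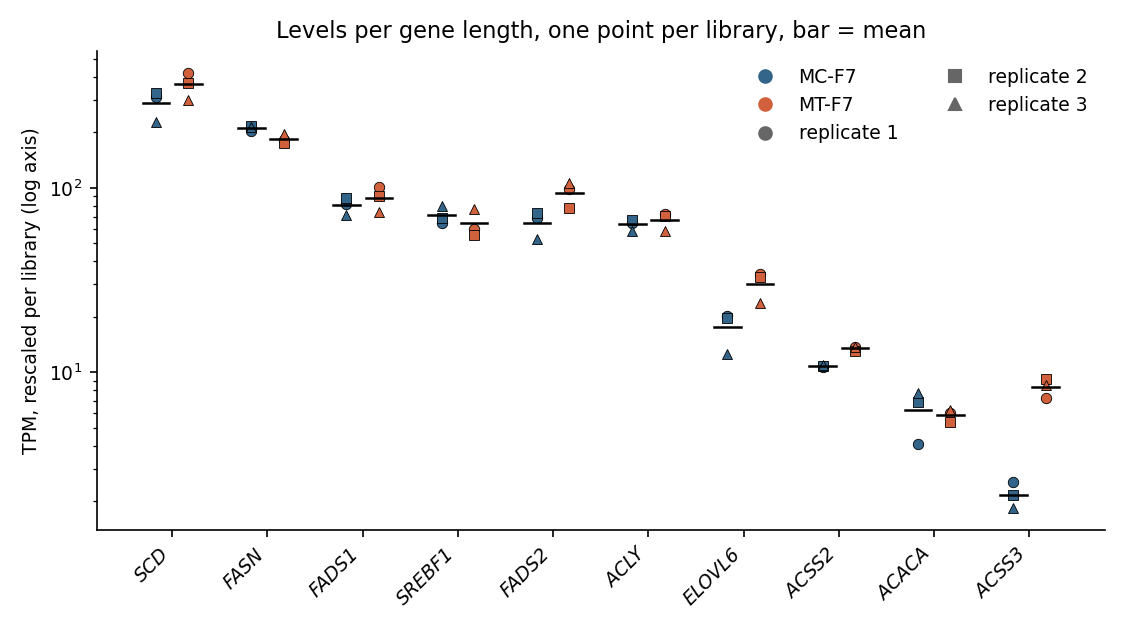
Levels of the 10 genes per gene length, as deposited TPM rescaled to 1000000 per library, on a log axis, with 1 point per library, colour for the group, marker shape for the replicate number and a black bar for the group mean. SCD and FASN are highest in both groups, and ACSS3 moves from 2.17 TPM in MC-F7, the lowest of the 10, to 8.31 TPM in MT-F7.

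For the comparison between groups, counts were normalized by TMM and all tested genes were compared by edgeR's quasi-likelihood test with Benjamini-Hochberg adjustment, with an adjusted p under 0.05 as the threshold and a positive log2 fold change meaning a higher level in MT-F7 cells. ACSS3 and ELOVL6 were the 2 of the 10 genes that were significantly higher in MT-F7, and none of the 10 was significantly lower. Over all tested genes, 11.9% were called higher and 23.2% were called in either direction, so 2 of 10 is not far from the background share, and 11.3% were called lower. The median log2 fold change of the 10 genes was 0.14, beside -0.0026 over all tested genes, with 6 genes above 0 and 4 below. The groups did not overlap for 5 of the 10, which were ACSS2, ACSS3, ELOVL6 and FADS2 on the higher side and FASN on the lower side, and over all tested genes this held for 40.0%, with 19.9% higher and 20.1% lower. Without MT-F7 replicate 1, 1 of the 10 was called (ACSS3), and the other 5 fits that each left out 1 library called 2, which were ACSS3 and ELOVL6 in 4 of them and ACSS3 and FADS2 without MT-F7 replicate 2. In bulk RNA a change in the share of cells that express a gene and a change in RNA per cell cannot be told apart. The tested markers of pluripotent and neural cells given above moved between the same groups. Their part in these results was not tested.

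**Figure D2:**
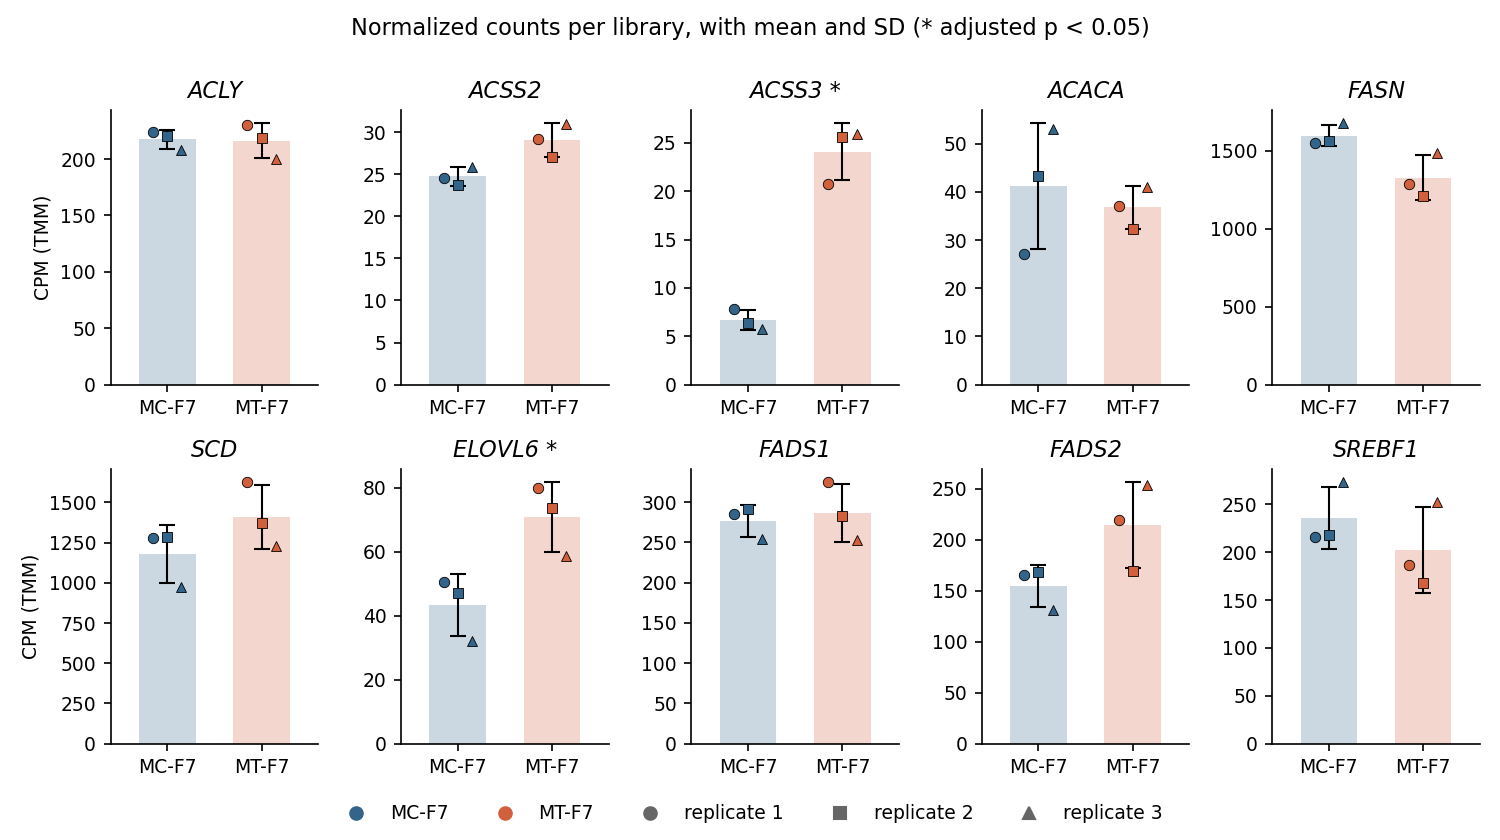
Normalized counts (CPM, with TMM factors) of each gene in the 6 libraries; bars are group means, error bars are the SD of 3 libraries, points are libraries with marker shape for the replicate number, each axis starts at 0, and an asterisk marks an adjusted p under 0.05. The groups are far apart for ACSS3, with 5.80 to 7.83 CPM in MC-F7 and 20.8 to 25.9 CPM in MT-F7, and overlap for ACLY, ACACA, SCD, FADS1 and SREBF1.

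Of the supply genes, ACSS3 rose and the other two did not pass the threshold. ACSS3 (Entrez gene 531552) encodes a mitochondrial acyl-CoA synthetase with a known preference for propionate over acetate, so it is not itself a source of cytosolic acetyl-CoA. It had 7.83, 6.34 and 5.80 CPM in MC-F7 and 20.8, 25.6 and 25.9 CPM in MT-F7 libraries. All MT-F7 libraries lay far above all MC-F7 libraries. The fold change was 3.62 (95% interval 2.73 to 4.79) and its log2 value 1.86, with a standard error of 0.187 and an adjusted p of 2.0e-05, while 6.13% of tested genes rose by a log2 fold change over 1 at this threshold. ACSS3 passed in all 17 alternative fits, with log2 fold changes from 1.55 to 1.99. In the RefSeq annotation of the ARS-UCD2.0 assembly ACSS3 overlaps PPFIA2, a gene for a liprin scaffold protein, for which 5, 20 and 18 counts were found in the MC-F7 libraries and 70, 71 and 50 in the MT-F7 libraries (log2 fold change 2.01, adjusted p = 0.0056), against 124 to 177 and 521 to 664 counts for ACSS3. Whether reads are shared between this pair was not tested.

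ACSS2 (506459), the acetate-using enzyme of cytosol and nucleus, had 24.6, 23.8 and 25.9 CPM in MC-F7 and 29.2, 27.0 and 31.0 CPM in MT-F7 libraries. Every MT-F7 library was higher, but the fold change was 1.17 (95% interval 0.939 to 1.47, adjusted p = 0.29). On the rescaled TPM values, where the spread within groups was smaller, limma on log2(TPM + 1) gave a log2 fold change of 0.29 with an adjusted p of 0.043, the only 1 of 17 alternatives in which ACSS2 passed. ACLY (511135) had 224, 221 and 208 CPM in MC-F7 and 230.5, 218 and 199.99 CPM in MT-F7 libraries, which overlapped. Its fold change was 0.994 with a 95% interval of 0.803 to 1.23 (adjusted p = 0.97), so an increase above 1.23-fold or a fall below 0.803-fold lies outside the interval. Per gene length ACLY stayed above ACSS2 in every library, and the ratio of ACSS2 to ACLY was 0.171 ± 0.0137 in MC-F7 cells compared to 0.203 ± 0.0259 in MT-F7 cells.

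Within the family of short-chain acyl-CoA synthetases the makeup differed. ACSS3 took 15.3%, 12.9% and 10.3% of the family's TPM in MC-F7 libraries, against 30.8%, 37.8% and 33.4% in MT-F7 libraries. ACSS2 took 62.0% to 64.9% and 53.6% to 58.3%, and ACSS1, the mitochondrial acetate-using member, took 20.2% to 27.6% and 8.67% to 13.1%. ACSS1 itself was lower in each MT-F7 library but did not pass the threshold (log2 fold change -0.66, standard error 0.252, adjusted p = 0.078). It passed in 3 of 17 alternatives, among them the fit without MT-F7 replicate 3 (log2 fold change -0.90, adjusted p = 0.025).

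The genes for chain synthesis were at or below their MC-F7 level, and neither passed the threshold. FASN (281152) had 1552, 1566 and 1677 CPM in MC-F7 and 1288, 1210.2 and 1486 CPM in MT-F7 libraries. The highest MT-F7 library stayed below the lowest MC-F7 library, with a fold change of 0.831 (95% interval 0.651 to 1.06), a log2 value of -0.27, a standard error of 0.163 and an adjusted p of 0.27. FASN did not pass in any of the 17 alternatives, in which its log2 fold change ran from -0.36 to -0.19. ACACA (281590) had 27.2, 43.4 and 53.0 CPM in MC-F7 and 37.0, 32.2 and 41.1 CPM in MT-F7 libraries. All 3 MT-F7 values lay inside the range of the MC-F7 values. MC-F7 replicate 1 was the lowest of the 6 and replicate 3 the highest, and the coefficient of variation in MC-F7 was 31.7%, the widest of the 10 genes. The 95% interval of the ACACA fold change was 0.645 to 1.24 (adjusted p = 0.63), and its sign turned without MC-F7 replicate 3 (log2 fold change 0.051, adjusted p = 0.89). ACACB, the isozyme of the mitochondrial surface whose malonyl-CoA restrains fatty acid oxidation, had 125 ± 17.8 CPM in MC-F7 and 152 ± 12.5 CPM in MT-F7 (log2 fold change 0.27, adjusted p = 0.23).

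In the elongation and desaturation group all 4 fold changes were above 1, and ELOVL6 rose. ELOVL6 (533333) had 50.6, 47.2 and 32.2 CPM in MC-F7 and 79.8, 73.7 and 58.6 CPM in MT-F7 libraries. The lowest MT-F7 library was above the highest MC-F7 library, with a fold change of 1.63 (95% interval 1.22 to 2.17), a log2 value of 0.71, a standard error of 0.192 and an adjusted p of 0.018. The call was lost without MT-F7 replicate 1 (log2 fold change 0.60, adjusted p = 0.083) and without MT-F7 replicate 2 (0.68, adjusted p = 0.054). It was also lost with limma on TPM with a pseudocount of 1 or of 0.1, with adjusted p-values of 0.078 and 0.10, although the log2 fold change was then 0.77 and 0.80. The ratio of ELOVL6 to FASN per gene length was 0.0995, 0.0918 and 0.0586 in MC-F7 libraries, against 0.189, 0.186 and 0.120 in MT-F7 libraries, which did not overlap.

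FADS2 (521822), the enzyme of the first desaturation step of linoleic and alpha-linolenic acid, had 165, 168 and 131 CPM in MC-F7 and 219, 169 and 253 CPM in MT-F7 libraries. MT-F7 replicate 2 exceeded MC-F7 replicate 2 by little, and the other MT-F7 libraries were well above. The fold change was 1.38 (95% interval 1.06 to 1.81) and the log2 fold change 0.47 (standard error 0.178), with an adjusted p of 0.076 and an unadjusted p of 0.021. FADS2 passed in 3 of 17 alternatives, among them the fit without MT-F7 replicate 2 (log2 fold change 0.62, adjusted p = 0.041) and the Wald test of DESeq2 (0.47, adjusted p = 0.0497). Without both libraries numbered 3 its log2 fold change was 0.24. FADS1 (533107), which encodes the later desaturase, lies beside FADS2 and overlaps it in the RefSeq annotation. It had 285, 291 and 254 CPM in MC-F7 and 324, 283 and 253 CPM in MT-F7, with a fold change of 1.04 (95% interval 0.823 to 1.31, adjusted p = 0.84), and its log2 fold change was below 0 without MC-F7 replicate 3 or without MT-F7 replicate 1 (-0.010 and -0.052). The ratio of FADS2 to FADS1 per gene length was 0.741 to 0.835 in MC-F7 and 0.862 to 1.44 in MT-F7 libraries.

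SCD (280924) had 1279.9, 1285 and 974 CPM in MC-F7 and 1624, 1375 and 1230.4 CPM in MT-F7 libraries. MT-F7 replicate 3 lay between the MC-F7 values, and the fold change of 1.195 (95% interval 0.911 to 1.57, adjusted p = 0.34) did not pass in any of the 17 alternatives. The mean of SCD was higher and that of FASN lower in MT-F7, but neither passed the threshold. The ratio of SCD to FASN per gene length was 1.52, 1.51 and 1.07 in MC-F7 libraries, against 2.32, 2.10 and 1.53 in MT-F7 libraries. In each group replicate 3 had the lowest ratio. The lowest MT-F7 ratio was just above the highest MC-F7 ratio, and no test was made of this ratio. SCD5, a desaturase of the same reaction, rose from 17.3 ± 1.82 to 26.5 ± 2.01 CPM (log2 fold change 0.62, adjusted p = 0.014), and did not pass without MT-F7 replicate 2 (log2 fold change 0.56, adjusted p = 0.064).

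**Figure D3:**
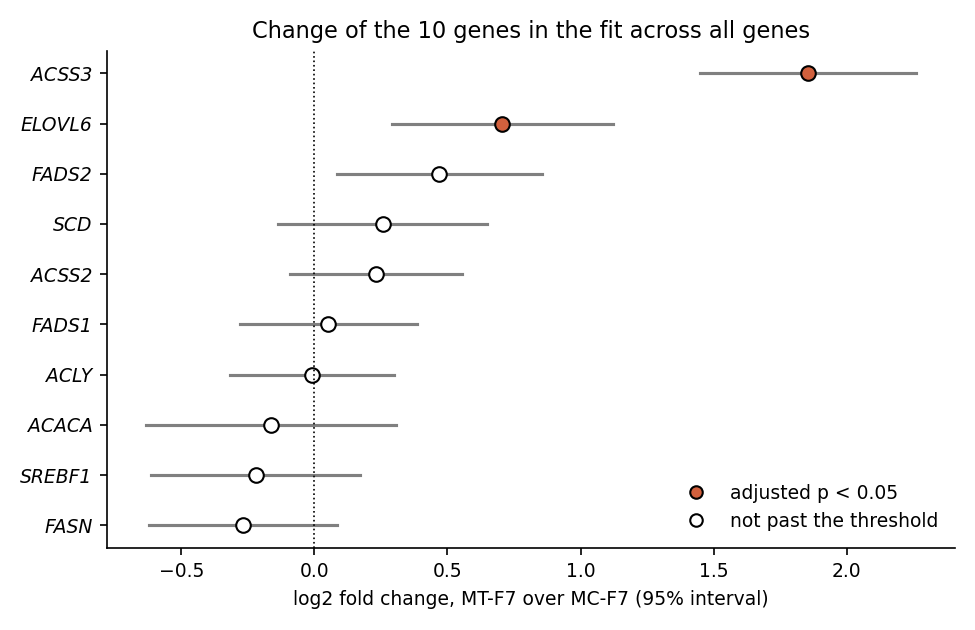
Log2 fold changes of the 10 genes, MT-F7 over MC-F7, with 95% intervals from edgeR's quasi-likelihood fit across all tested genes; filled points have an adjusted p under 0.05. ACSS3 at 1.86 and ELOVL6 at 0.71 pass, the interval of FADS2 lies above 0 while its adjusted p is 0.076, and the other 7 intervals include 0.

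SREBF1 (539361) had 216, 218 and 273 CPM in MC-F7 and 186, 167 and 253 CPM in MT-F7 libraries. The groups overlapped, and the fold change was 0.859 (95% interval 0.654 to 1.13, adjusted p = 0.42). In both groups replicate 3 was the highest library. RAI1, which overlaps SREBF1 in the RefSeq annotation, had 345 to 412 counts in MC-F7 and 472 to 800 counts in MT-F7 (log2 fold change 0.59, adjusted p = 0.073; it passed in 4 of 17 alternatives), far below the 4336 to 5948 counts of SREBF1. The RNA level of SREBF1 does not show how much SREBP1 protein was cleaved and active, which was not measured here.

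The library numbered 3 stood at an end of the range for most of the 10 genes. In both groups replicate 3 had the lowest level of ACLY, SCD, ELOVL6 and FADS1 and the highest level of ACSS2, ACACA, FASN and SREBF1, which makes 8 of 10 genes. Over all tested genes replicate 3 was at the same end in both groups for 50.6%, and these libraries also had the highest mitochondrial share, 28.3% and 27.9%. The part of RNA quality or handling in this was not tested. Without both of these libraries ACSS3 and ELOVL6 were still the 2 genes called, a fit chosen after seeing the data.

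**Figure D4:**
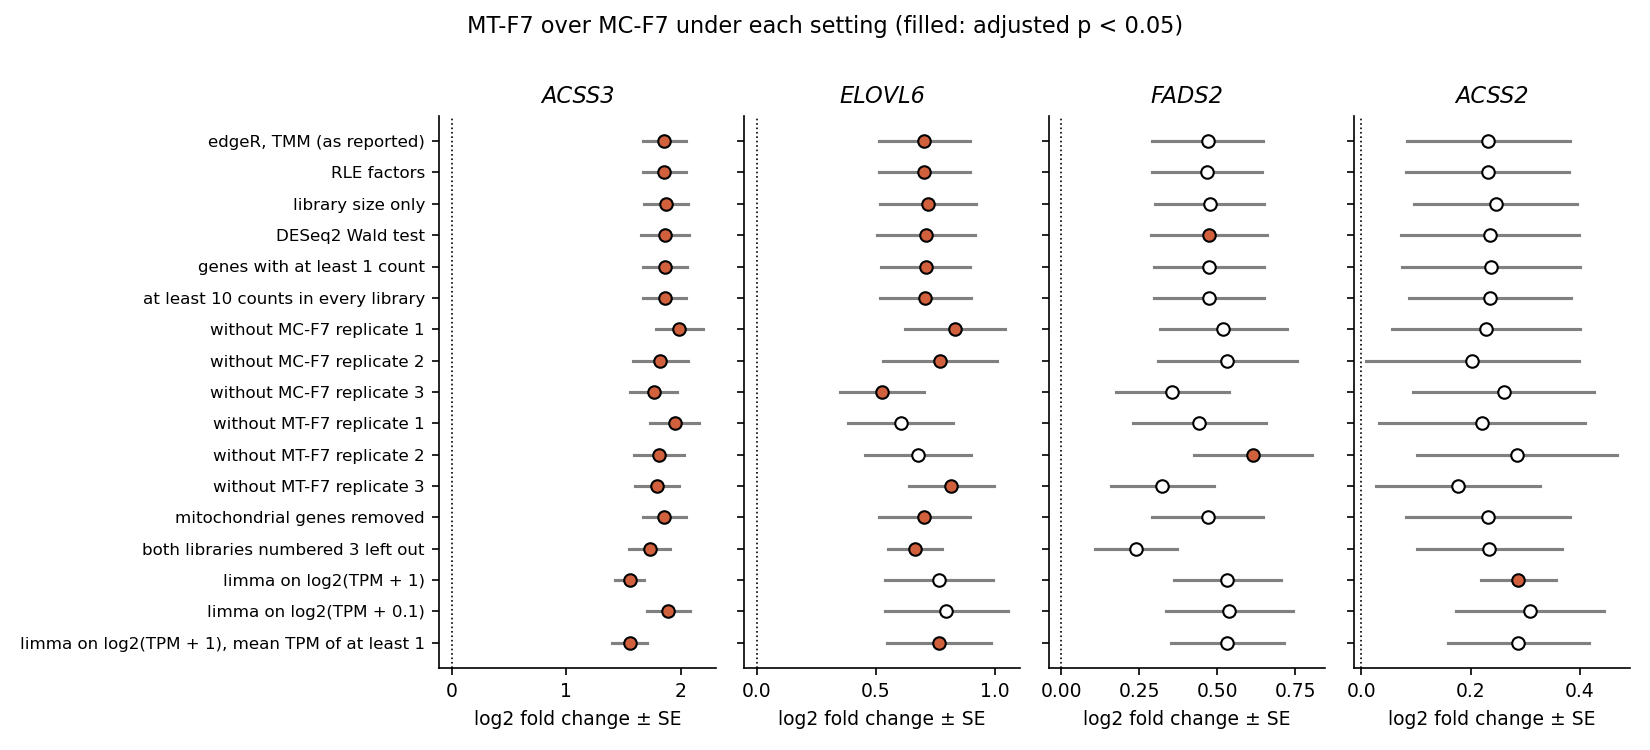
Log2 fold change, MT-F7 over MC-F7, of the 4 genes with no overlap between groups on the higher side, with its standard error as a line, under the reported fit and the alternative settings named at the left; filled points have an adjusted p under 0.05. ACSS3 passes throughout, ELOVL6 loses its call in 4 settings, among the settings drawn FADS2 passes in DESeq2 and without MT-F7 replicate 2, and ACSS2 passes with limma on log2(TPM + 1).

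The remaining genes of the pathway were taken from named lists, in which the share called is to be read beside the 23.2% of all tested genes. The list of 15 genes around carbon supply from pyruvate and citrate also held ACAT2, which uses acetyl-CoA, and PDK1, which restrains pyruvate dehydrogenase. Its counts and median therefore do not stand for supply alone. In this list 1 gene rose, 2 fell and 12 did not pass (20% called), with a median log2 fold change of -0.27. ACAT2, the cytosolic thiolase that draws acetyl-CoA toward sterols, rose from 118 ± 23.4 to 225 ± 45.7 CPM (log2 fold change 0.94, standard error 0.196, adjusted p = 0.0043). PDK1, the kinase that switches off pyruvate dehydrogenase, fell from 32.5 ± 10.7 to 12.6 ± 1.89 CPM (log2 fold change -1.36, standard error 0.236, adjusted p = 0.0012). PDHA1, a subunit of pyruvate dehydrogenase itself, also fell (log2 fold change -0.59, adjusted p = 0.035), but passed in only 2 of 6 fits that left out 1 library, failing without MC-F7 replicates 1 and 2 and MT-F7 replicates 2 and 3 (adjusted p 0.055 to 0.13). Of 7 genes that supply NADPH, the reducing power of FASN, 2 fell and none rose (28.6% called). ME1, the cytosolic malic enzyme, fell from 38.1 ± 3.74 to 21.6 ± 5.23 CPM (log2 fold change -0.82, adjusted p = 0.0074), and PGD, of the pentose phosphate pathway, fell from 415 ± 53.4 to 273 ± 25.8 CPM (log2 fold change -0.61, adjusted p = 0.015), a call lost without MC-F7 replicate 2 (adjusted p = 0.077).

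Malonyl-CoA control and the separate fatty acid synthesis of mitochondria gave 1 gene higher and 3 lower of 12 tested, or 33.3% called beside 23.2% of all tested genes. MLYCD, which breaks malonyl-CoA down, fell from 15.6 ± 2.53 to 7.18 ± 2.26 CPM (log2 fold change -1.12, standard error 0.232, adjusted p = 0.0040). OXSM, the mitochondrial condensing enzyme, fell from 15.9 ± 4.93 to 6.90 ± 0.699 CPM (log2 fold change -1.20, adjusted p = 0.0030). MID1IP1, an activator of acetyl-CoA carboxylase, fell as well (log2 fold change -0.69, adjusted p = 0.020), and failed without MC-F7 replicate 1, MC-F7 replicate 2 or MT-F7 replicate 2 (adjusted p 0.052 to 0.12). HSD17B8, of the mitochondrial pathway, rose (log2 fold change 0.62, adjusted p = 0.011), and failed without MC-F7 replicate 2 (adjusted p = 0.071).

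The other 18 elongation and desaturation genes did not share a direction, with 2 higher, 3 lower (27.8% called beside 23.2%) and a median log2 fold change of -0.14. ELOVL7 fell from 2.84 ± 0.517 to 0.563 ± 0.0301 CPM (log2 fold change -2.33, adjusted p = 4.2e-04). FADS6 was counted 31, 18 and 36 times in MC-F7 libraries but 2, 3 and 3 times in MT-F7 libraries. It was at least 9.27-fold lower when 3 counts per library are taken as the limit. FADS6 was the lowest gene of the list at this bound too, so the median could not change. DEGS1, which makes the double bond of ceramide, fell (log2 fold change -0.55, adjusted p = 0.029) and passed in 2 of 6 fits that left out 1 library, failing without MC-F7 replicates 1 and 2 and MT-F7 replicates 2 and 3. HACD4 rose (log2 fold change 1.04, adjusted p = 0.040) but in none of those 6 fits did it pass (adjusted p 0.056 to 0.17). The broadly used elongation partners HSD17B12 and TECR had log2 fold changes of 0.078 and 0.13, with adjusted p-values of 0.84 and 0.63.

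Among regulators of the pathway MLXIPL fell and no other gene passed. Of 18 genes for SREBP processing and lipogenic transcription, 1 was called, beside 23.2% of all tested genes. MLXIPL, which encodes the carbohydrate-responsive factor ChREBP, fell from 4.25 ± 2.10 to 0.746 ± 0.414 CPM (log2 fold change -2.51, standard error 0.459, adjusted p = 0.0018). SREBF2, the paralog of SREBF1 that acts mainly on sterol genes, had 364 ± 38.2 CPM in MC-F7 and 268 ± 33.9 CPM in MT-F7 without overlap, with an adjusted p of 0.062. It passed in 5 of 17 alternatives, among them those without MC-F7 replicate 3 and without MT-F7 replicate 3 (log2 fold change -0.53 and -0.55, adjusted p = 0.031 and 0.024). Of 7 sterol genes driven by SREBPs, none was called, and the median log2 fold change was 0.20. The highest was 0.47 for CYP51A1, a demethylase of cholesterol synthesis (adjusted p = 0.089), which passed in 3 of 17 alternatives, among them the fit without MT-F7 replicate 3 (adjusted p = 0.041).

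Of 15 tested genes for uptake, activation and binding of fatty acids, 3 rose, 1 fell and 11 did not pass, and the share called was 26.7% beside 23.2% of all tested genes. SLC27A2 and SLC27A5, fatty acid transport proteins with acyl-CoA synthetase activity, rose from 1.47 ± 0.984 to 6.26 ± 1.30 CPM (log2 fold change 2.08, standard error 0.391, adjusted p = 0.0021) and from 5.05 ± 1.95 to 11.9 ± 4.02 CPM (1.23, standard error 0.295, adjusted p = 0.0088). FABP7, the fatty acid binding protein of neural progenitors, rose from 79.4 ± 14.7 to 142 ± 22.3 CPM (log2 fold change 0.84, adjusted p = 0.0048), beside the higher neural markers given above. Whether the rise of FABP7 is linked to those markers was not tested. ACSL6 fell from 8.07 ± 1.73 to 4.06 ± 1.01 CPM (log2 fold change -0.99, adjusted p = 0.012), and failed without MT-F7 replicate 2 (adjusted p = 0.056). For glycerolipid assembly and storage, 4 of 17 tested genes fell, 1 rose and 12 did not pass, or 29.4% called beside 23.2%. Among the 4 was PNPLA2, a lipase that breaks stored triglyceride down. PNPLA2 fell from 51.9 ± 5.72 to 30.5 ± 1.08 CPM (log2 fold change -0.77, adjusted p = 0.0028). AGPAT2, which acylates lysophosphatidic acid on the way to triglyceride, fell from 18.7 ± 2.43 to 5.10 ± 0.835 CPM (log2 fold change -1.87, standard error 0.198, adjusted p = 3.0e-05) and passed in all 17 alternatives. LPIN1, a phosphatidic acid phosphatase of the next step, fell from 15.4 ± 4.58 to 7.56 ± 1.01 CPM (log2 fold change -1.02, adjusted p = 0.0067). MOGAT1 fell (log2 fold change -1.18, adjusted p = 0.013), and lost its call without MC-F7 replicate 2 at nearly the same size (log2 fold change -1.16, adjusted p = 0.053). PLIN3, a lipid droplet coat protein, rose (log2 fold change 0.53, adjusted p = 0.020) and passed in 2 of 6 fits that left out 1 library, failing without MC-F7 replicates 2 and 3 and MT-F7 replicates 1 and 2 (adjusted p 0.050 to 0.089). Of 8 tested histone acetyltransferases, which use acetyl-CoA, CREBBP rose and KAT7 fell (log2 fold change 0.54 and -0.57, adjusted p = 0.027 and 0.028), or 25% called beside 23.2%. CREBBP failed without MC-F7 replicates 1 and 2 and MT-F7 replicates 1 and 3 (adjusted p 0.053 to 0.14), and KAT7 without MC-F7 replicates 1 and 2 and MT-F7 replicate 2 (adjusted p 0.062 to 0.12).

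**Figure D5:**
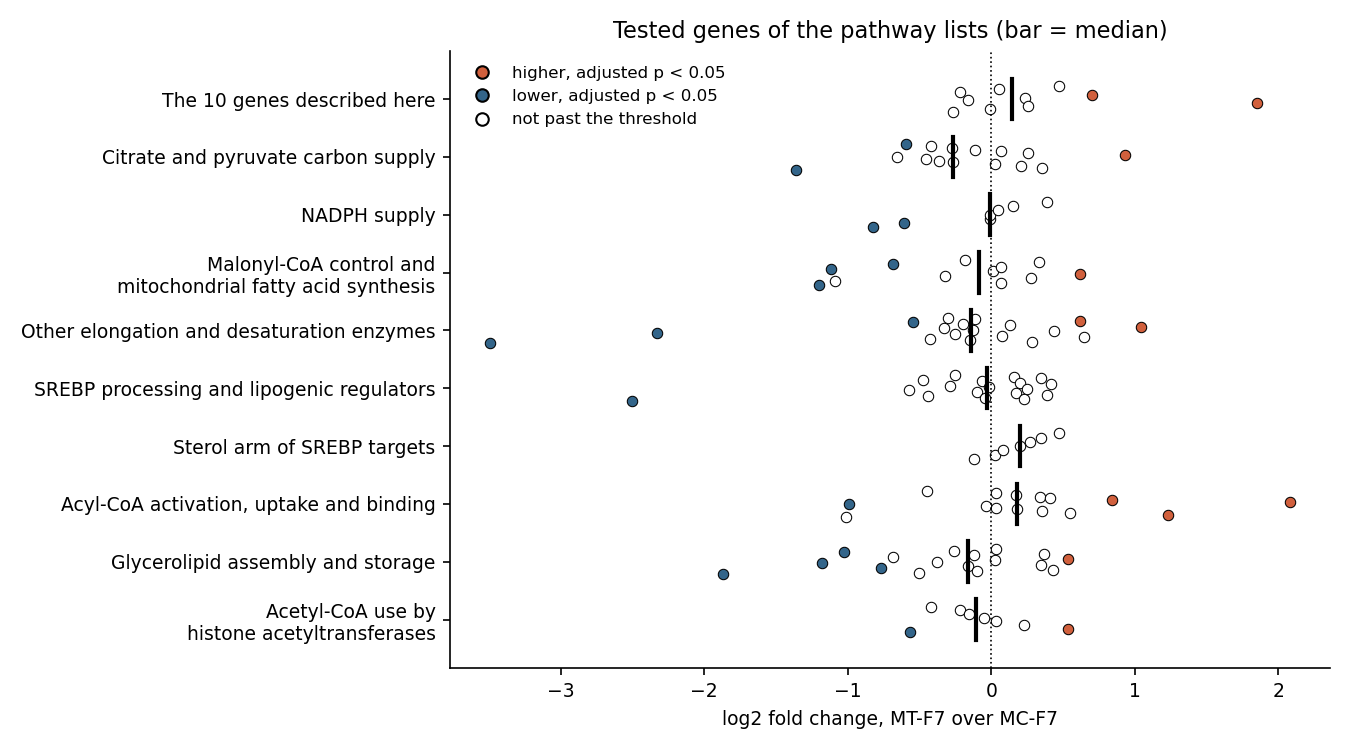
Log2 fold changes, MT-F7 over MC-F7, of the tested genes of each list, 1 point per gene, with the list median as a black bar and red or blue for genes higher or lower at an adjusted p under 0.05. The 10 genes described here have a median of 0.14 with 2 called, the carbon supply list has a median of -0.27 with 3 called, and the point at the far left is FADS6, whose MT-F7 counts were at or under 3.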

How the data were processed

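RNA-seq values of 3 MC-F7 and 3 MT-F7 libraries were used. The authors aligned paired-end reads to an Ensembl Bos taurus genome with HISAT2 2.0.5 (build not given in the sources used here) and counted them with featureCounts 1.5.0-p3; they deposited raw counts per Entrez gene and a table of TPM values made from them, whose columns were not scaled to 1000000. Whether strand was used in counting is not given in the sources used here. Entrez genes were named from the RefSeq table of ARS-UCD2.0 (19074 of 19163 matched). Of 21653 TPM lines, 21357 Ensembl genes were kept (the first line of each), and each library was rescaled to 1000000.

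Counts were filtered with filterByExpr (minimum count 10, minimum total 15), normalized by TMM (factors 0.971 to 1.04) and tested in edgeR 4.0.16 (R 4.3.3) by the quasi-likelihood test without a block, with Benjamini-Hochberg adjustment over 13001 genes; intervals use the test's standard error and degrees of freedom. TPM was tested with limma 3.58.1 on log2(TPM + 1) and log2(TPM + 0.1). Other alternatives were DESeq2 1.42.0, RLE factors, library size only, other filters, removal of mitochondrial genes, a block for the replicate number and fits that left out 1 library. A fit without both libraries numbered 3 was added after seeing the data. The edgeR fit, its variants by normalization factors, filter and block, DESeq2, and limma on log2(CPM + 1) were tested on simulated counts. The other steps were not. Figures and tables were made with Python 3.11.15.

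The smallest two-sided p of an exact permutation test is 0.1 for 3 against 3, so p-values come from the fit across all genes. Libraries of a group differed by more than counting noise, so none was treated as 1 library deposited again, which does not show that they came from separate cultures. The 10 genes and the lists were chosen with earlier results of these data known, so no list was tested and no p was adjusted over a list. Named from each list were, in each direction, at most 3 genes past the threshold, ranked by absolute log2 fold change. SREBF2, ACSS1, ACACB, CYP51A1, HSD17B12, TECR and PNPLA2 were added after their values were seen. Listed genes without a row in the count table were not tested on counts. Among them only UTF1 and LIN28B are given, as TPM.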

Additional observations from a re-analysis of the deposited data

How the results depend on the processing

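Of 170 alternative values of the 10 genes, 151 kept their direction and their side of the threshold. ACLY, close to 0 in the reported fit, was above 0 with library size only (0.0077), without both libraries numbered 3 (0.031), with limma on log2(TPM + 1) with or without a minimum mean TPM of 1 (0.070) and on log2(TPM + 0.1) (0.071), and ran from -0.063 to 0.038 when 1 library was left out. ACACA ran from -0.39 to 0.051 and FADS1 from -0.052 to 0.13 in those 6 fits. The number of the 10 genes called was 1 or 2 when 1 library was left out, 1 with limma on log2(TPM + 0.1) and 1 where the absolute log2 fold change also had to exceed 1; the cause was not tested.

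Over all genes 3016 were called, 1914 to 3093 with 1 library left out (fewest without MC-F7 replicate 2), and 1489 with that size requirement. With the replicate block 4674 were called and 3 of the 10 genes passed, since FADS2 did (log2 fold change 0.46, adjusted p = 0.020); it changed no other call among the 10. The numbers were not taken as pairs, since the deviations of same-numbered libraries correlated at 0.134, 0.0445 and 0.417. The rank of each gene by TPM was the same on values as deposited. With 3 libraries a group, the 95% intervals of the 8 genes that did not pass cover the spread between these libraries only. Because that spread may be technical, the intervals do not bound a change between culture conditions.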
